A study of Mus musculus with 8 samples.

Results

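Carboxylesterases are serine hydrolases that split ester and amide bonds, and the 9 mouse genes Ces1d, Ces1e, Ces1f, Ces1g, Ces2a, Ces2c, Ces2e, Ces3a and Ces3b were followed here in the livers of 8 mice. A gene was included when a non-control probe of the array carried a RefSeq accession that maps to one of these 9 symbols, whatever its values. All 9 were found, among 19751 named genes on the array, through 12 probes of 26055 named probes. Every one of the 12 probes was well above background on 8 of 8 arrays, so that none of the 9 genes was lost to the filter on dim probes or entered through one bright group. Ces2c had 3 probes, Ces2e had 2 and the other members 1 each.

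The study asked what loss of Keap1, the adaptor that keeps the transcription factor Nrf2 low, does in mice with bile duct cancer. All mice carried an activated oncogene and the p53 R172H mutant, both limited to the liver, and are called AKP. AKP::Keap1 mice lacked Keap1 in addition. Each genotype was represented by 2 males and 2 females, which makes 4 groups. Ages, and the promoter that limits the alleles to the liver, are not given in the sources used here, and no group without the oncogene and mutant p53 was among the samples. Total RNA of whole liver was labelled with Cy3 and hybridised to 1-colour Agilent mouse arrays, 1 mouse per array. Each value therefore averages over hepatocytes, bile duct, tumour and immune cells, and a lower level can mean fewer cells of a type or less RNA per cell, which cannot be told apart.

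Most mammalian carboxylesterases sit in the lumen of the endoplasmic reticulum, held there by a retention signal at their C-terminus, and the liver holds large amounts of them. They activate or clear ester drugs, and several also hydrolyse stored lipids: Ces1d, long known as triacylglycerol hydrolase (TGH), mobilises triglyceride for the assembly of very-low-density lipoprotein. Ces1e is egasyn, the protein that anchors part of the lysosomal enzyme beta-glucuronidase in the endoplasmic reticulum. Liver carboxylesterases are known targets of xenobiotic receptors, and some differ between male and female rodents.

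Throughout, a level is log2 of the scanner's processed signal minus the 75th percentile of that array, so that 0 marks the array's 75th percentile and 1 unit is a doubling. Levels of different probes depend on the probe and are not set against each other. A difference is a difference of mean levels in a limma model of all 8 arrays and 15834 genes, given with its standard error (SE), and a gene was called when its Benjamini-Hochberg adjusted p over all genes was below 0.05. The words higher, lower, rose and fell are used for called differences. The share of spots well above background ranged from 65.7% to 70.7% by array, and no spot was saturated. Keap1 itself fell by 2.85 ± 0.11 (SE, adjusted p = 0.000177) in AKP::Keap1 livers, whereas Trp53, whose R172H allele is a single amino acid change, differed by 0.12 ± 0.11 (adjusted p = 0.415). Averaged over the genotypes, the 4 sex chromosome genes tested followed the labelled sexes, with Xist higher and 3 Y-linked genes lower in females. Within AKP::Keap1 mice the 3 Y-linked genes were lower in females too, and Xist had 0.93 ± 0.23 (adjusted p = 0.0845) against 3.44 ± 0.23 in AKP mice, an interaction of -2.52 ± 0.32 (adjusted p = 0.0339). Each of the 4 slides held 1 group, so that slide and group cannot be told apart. All males were scanned on 1 day and all females on another, so that sex and scan day cannot be told apart either.

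The mouse carboxylesterase genes lie on chromosome 8 in 2 clusters, by the gene order of the RefSeq annotation of GRCm38.p6. The Ces1 genes and Ces5a form one, and the Ces2, Ces3 and Ces4a genes the other, with no other protein-coding gene between neighbours of a cluster. The members do not share one pattern over the 4 groups. Ces1g was lowest in AKP males, Ces1d was highest in AKP females, Ces3a and Ces3b stepped down from AKP males to AKP::Keap1 females, and Ces1f stayed between 5.28 and 5.75 in all 8 livers.

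**Figure D1:**
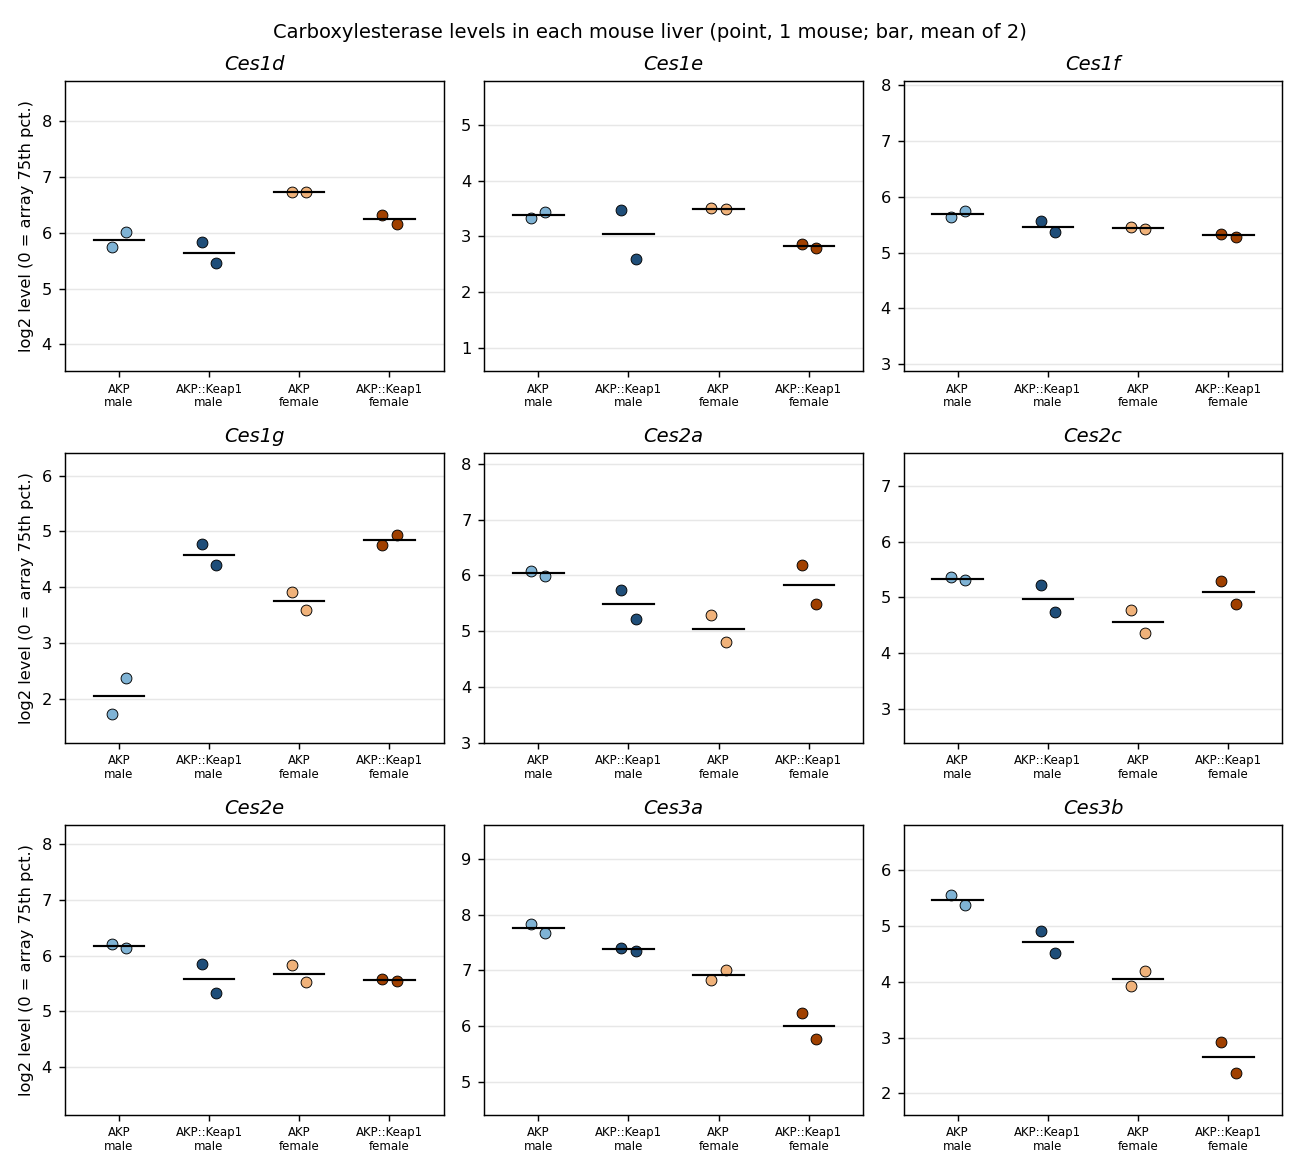
Level of each of the 9 carboxylesterases in each liver, as log2 signal above the 75th percentile of its array; points are single mice, bars are means of 2, and every panel spans the same range of log2 units. Ces1g is lowest in both AKP males (1.72 and 2.37), and Ces3b is lowest in both AKP::Keap1 females (2.36 and 2.93).

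Between genotypes, 3 of the 9 carboxylesterases changed when averaged over the sexes: Ces1g rose, and Ces3a and Ces3b fell. Of all 15834 genes, 39.1% were called in this comparison, 21.8% higher and 17.2% lower, so that the members' share is close to that of genes in general. The median difference was -0.35 over the 9 members, -0.0009 over all genes and -0.34 over the 14 hepatocyte markers described below. When arrays were shifted to their median in place of the 75th percentile, which moved the median of all genes to -0.25, 7 members were called, 1 higher and 6 lower, and 8744 genes in all, 2372 higher and 6372 lower. Among the members that were not called, the sign also rested on the scaling or the probe rule, with values from -0.43 to 0.13 for Ces1f, from -0.13 to 0.43 for Ces2a and from -0.16 to 1.57 for Ces2c.

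Ces1g, also known as Ces1 or esterase-x, is a liver enzyme of lipid and drug hydrolysis and, with the brightest probe standing for each gene, had the largest difference by genotype among the members. Both other probes of Ces2c differed by more. In males its level was 1.72 and 2.37 without and 4.77 and 4.40 with the loss of Keap1. In females it was 3.92 and 3.59 in AKP and 4.76 and 4.93 in AKP::Keap1. All 4 AKP::Keap1 livers were thus above all 4 AKP livers, and the AKP males stood lowest. Over both sexes Ces1g rose by 1.82 ± 0.18 (SE, 3.52-fold, adjusted p = 0.00159). Within males the rise was 2.54 ± 0.26 (5.82-fold, adjusted p = 0.00301). Within females it was 1.09 ± 0.26 (2.13-fold, adjusted p = 0.0316). The mean over the sexes and the male difference kept their call in 18 of 18 other settings, with 1.57 to 2.13 and 2.17 to 3.05. The female call was lost in 6 of 18 other settings. It was lost with values without scaling (1.21, adjusted p = 0.0592) and with the replicate number as a block (adjusted p = 0.0532). It was also lost without any 1 of the 4 female arrays, where the difference was 0.93 to 1.26.

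The other Ces1 members were not called by genotype. Ces1d, the triacylglycerol hydrolase, had levels of 5.74 and 6.01 (AKP) against 5.83 and 5.46 (AKP::Keap1) in males, and 6.73 and 6.72 against 6.32 and 6.16 in females. The males of both genotypes overlapped, and both AKP::Keap1 females lay below both AKP females. The difference by genotype was -0.36 ± 0.12 (SE, adjusted p = 0.059), and it was called in 5 of 18 other settings.

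Ces1e, or egasyn, was at 3.32 and 3.44 (AKP) against 3.47 and 2.60 (AKP::Keap1) in males, and 3.50 and 3.49 against 2.87 and 2.79 in females. One AKP::Keap1 male, replicate 1, was level with the AKP mice and the other 3 AKP::Keap1 mice were lower than every AKP mouse. The difference was -0.51 ± 0.19 (SE, adjusted p = 0.0792). Without that male, which leaves 1 mouse in its group, the difference was -0.73. Ces1f, which RefSeq also lists as TGH-2, had a difference of -0.18 ± 0.09 (adjusted p = 0.147; 95% interval -0.39 to 0.03).

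The stretch upstream of the Ces1g start is shown because this gene was called by genotype in both sexes. It is chr8:93337210-93337459 on the minus strand of GRCm38.p6, from RefSeq, written in the direction of transcription and ending at the base before the start. Capitals mark a TATAAA motif on the opposite strand, whose first base lies 26 bases before the start.
Ces1g: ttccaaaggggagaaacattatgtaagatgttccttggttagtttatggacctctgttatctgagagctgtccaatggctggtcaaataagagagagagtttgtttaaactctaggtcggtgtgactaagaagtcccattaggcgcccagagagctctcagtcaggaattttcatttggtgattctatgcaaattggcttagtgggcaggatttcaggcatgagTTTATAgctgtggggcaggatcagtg

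RefSeq's table held such windows, of 250 bases before to 50 bases after the start, for 6 of the 9 members (Ces1e, Ces1g, Ces2a, Ces2c, Ces2e and Ces3b). Both strands were searched for motifs spelled as letters. The antioxidant response element core, TGACNNNGC, to which Nrf2 binds with its small Maf partners, was in none of the 6 and in 12.4% of 32851 windows of the same length. The STAT5 motif TTCNNNGAA, bound by the mediator of growth hormone signals, was in none of the 6 and in 8.30% of all windows. The HNF4 motif CAAAGTCCA was in none of the 6 and in 0.475% of all windows. TATAAA was in the windows of Ces1g and Ces3b and in 13.6% of all windows. A missing match says only that these letters are not in this window.

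Ces3a and Ces3b are neighbouring genes of the Ces3 subfamily, liver esterases that RefSeq also lists as Es31 and ES31L. Ces3a had levels of 7.83 and 7.67 (AKP) against 7.40 and 7.35 (AKP::Keap1) in males, and 6.83 and 7.0 against 6.24 and 5.77 in females. The 4 groups did not overlap, with males above females and, in each sex, AKP above AKP::Keap1. By genotype Ces3a fell by 0.64 ± 0.13 (SE, 1.56-fold, adjusted p = 0.0109).

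Ces3b had levels of 5.55 and 5.37 (AKP) against 4.90 and 4.51 (AKP::Keap1) in males, and 3.93 and 4.19 against 2.93 and 2.36 in females. Its groups stood in the same order, again without overlap. By genotype Ces3b fell by 1.08 ± 0.17 (SE, 2.12-fold, adjusted p = 0.00507). Both genes kept the call of the mean over the sexes in 18 of 18 other settings, from -0.89 to -0.33 for Ces3a and from -1.33 to -0.77 for Ces3b. Over the 8 arrays the 2 genes correlated at r = 0.995, a description over arrays that share the 4 groups. Their probes may each bind the other gene's transcript, and the probe sequences were not used here.

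Within females Ces3a fell by 0.91 ± 0.18 (SE, adjusted p = 0.0199) and Ces3b fell by 1.41 ± 0.24 (adjusted p = 0.0131). Within males the differences were -0.37 ± 0.18 for Ces3a (adjusted p = 0.161) and -0.75 ± 0.24 for Ces3b (adjusted p = 0.0583). The female calls rested on single arrays. For Ces3a the adjusted p was 0.0546 without AKP female replicate 1, 0.0971 without AKP female replicate 2 and 0.0634 without AKP::Keap1 female replicate 2. For Ces3b it was 0.0735 without AKP female replicate 2.

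The stretch upstream of Ces3b is shown because this gene fell by genotype and was lower in females. It is chr8:105083505-105083754 on the plus strand of GRCm38.p6, from RefSeq, ending at the base before the start. Capitals mark GTTAAT, a motif of the liver factor HNF1, whose first base lies 56 bases before the start, and TATAAA, 30 bases before it. GTTAAT was in 1 of the 6 members' windows and in 7.10% of all windows.
Ces3b: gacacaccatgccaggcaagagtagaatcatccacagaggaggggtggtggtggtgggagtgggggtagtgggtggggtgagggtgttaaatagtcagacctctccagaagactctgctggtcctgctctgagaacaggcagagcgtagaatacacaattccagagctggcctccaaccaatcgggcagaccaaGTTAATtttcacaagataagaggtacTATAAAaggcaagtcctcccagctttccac

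None of the Ces2 members was called by genotype through the probe that stood for the gene, the one with the highest mean. Ces2a, an enzyme that hydrolyses acylglycerols in liver, had levels of 6.07 and 6.0 (AKP) against 5.75 and 5.22 (AKP::Keap1) in males, and 5.28 and 4.80 against 6.19 and 5.48 in females. In males both AKP::Keap1 livers lay below both AKP livers, and in females both lay above. The differences were -0.55 ± 0.30 in males (SE, adjusted p = 0.205), 0.79 ± 0.30 in females (adjusted p = 0.11) and 0.12 ± 0.21 over both (adjusted p = 0.68).

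Ces2e, an enzyme of the same subfamily, had levels on its brightest probe of 6.20 and 6.13 (AKP) against 5.85 and 5.32 (AKP::Keap1) in males, and 5.83 and 5.52 against 5.58 and 5.54 in females. The AKP males were highest and the other 3 groups overlapped. The difference by genotype was -0.35 ± 0.14 (SE, adjusted p = 0.0992). In a fit of all probes the other Ces2e probe, A_51_P179919, fell by 0.76 ± 0.24 (adjusted p = 0.0458), so that both Ces2e probes were on the low side and 1 of them was called.

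Ces2c, the closest mouse relatives of which include Ces2a and Ces2b, is the member whose result rested on the probe. The brightest probe, A_55_P2005213, gave 5.36 and 5.31 (AKP) against 5.22 and 4.74 (AKP::Keap1) in males, and 4.77 and 4.37 against 5.30 and 4.88 in females. Its difference by genotype was 0.08 ± 0.17 (SE, adjusted p = 0.725). The probe A_55_P2124712 gave 3.05 and 2.16 (AKP) against 4.47 and 4.30 (AKP::Keap1) in males, and 1.31 and 0.79 against 3.76 and 3.95 in females. On it, all 4 AKP::Keap1 livers were above all 4 AKP livers.

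In the fit of all probes that probe rose by 2.29 ± 0.23 (SE, 4.91-fold, adjusted p = 0.00144), by 1.79 in males and 2.80 in females. The remaining probe, A_52_P318361, rose by 2.34 ± 0.24 (5.06-fold, adjusted p = 0.00154), by 1.83 in males and 2.85 in females. The file gives all 3 probes the same transcript of Ces2c. Over the 8 arrays the 2 rising probes correlated with each other at r = 0.9997 and with the probe of the neighbouring gene Ces2b at 0.998 each, and the brightest probe correlated with them at 0.46 and 0.47 and with Ces2a at 0.981. The Ces2b probe rose by 2.39 ± 0.22 (5.23-fold, adjusted p = 0.00141). Ces2 transcripts are similar in sequence, and which of these probes reads Ces2c alone was not tested.

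**Figure D2:**
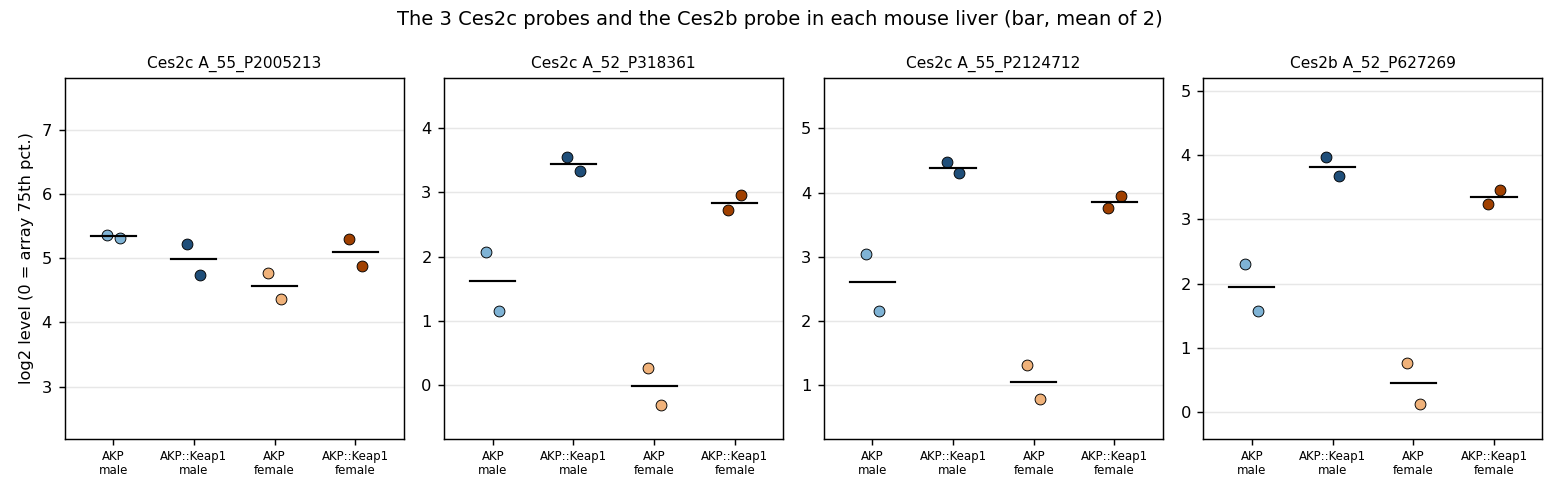
Level of the 3 Ces2c probes and of the Ces2b probe in each liver, as log2 signal above the 75th percentile of its array; points are single mice, bars are means of 2, and each panel spans its own values with the same number of log2 units. The probe at the left differed by 0.08 between genotypes, and the other 3 panels show rises of 2.34, 2.29 and 2.39.

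The upstream stretches of Ces2a and Ces2c are set side by side because the probes that stood for these 2 genes ran together. They are chr8:104733753-104734002 for Ces2a and chr8:104846818-104847067 for Ces2c, both on the plus strand of GRCm38.p6, from RefSeq, and each ends at the base before the start. Capitals mark their longest shared run, 11 bases that begin 43 bases before the Ces2a start and 47 bases before the Ces2c start. Their full windows were 66.9% identical, at 210 of 314 alignment columns, the highest share for any pair of the 6 members with a window. The lowest such pair, Ces1e and Ces3b, was at 45.8%, and outside the members Ces1b and Ces1c were at 78.6%. Ces1d, Ces1f and Ces3a had no window and were not compared.
Ces2a: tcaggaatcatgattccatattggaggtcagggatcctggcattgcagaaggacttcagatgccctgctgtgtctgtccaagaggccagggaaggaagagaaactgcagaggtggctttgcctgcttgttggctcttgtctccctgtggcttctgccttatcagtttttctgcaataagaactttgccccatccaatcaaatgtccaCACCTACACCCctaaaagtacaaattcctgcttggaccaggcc
Ces2c: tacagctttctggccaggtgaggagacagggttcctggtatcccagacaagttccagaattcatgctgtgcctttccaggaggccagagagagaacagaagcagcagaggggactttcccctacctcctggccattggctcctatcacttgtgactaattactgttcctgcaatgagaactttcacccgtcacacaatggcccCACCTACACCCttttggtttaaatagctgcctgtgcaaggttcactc

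**Figure D3:**
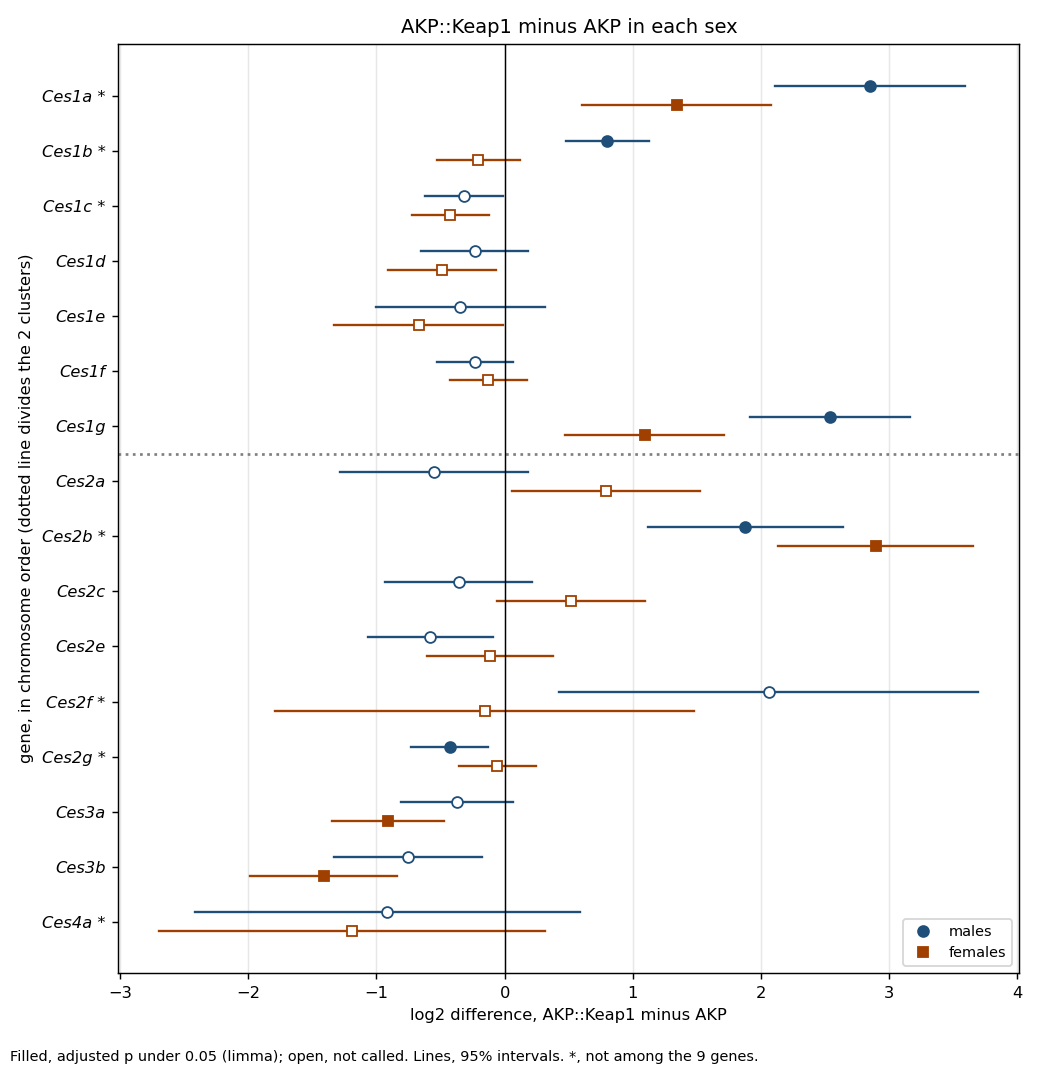
Difference between AKP::Keap1 and AKP in males (circles) and females (squares) for the 16 carboxylesterase genes tested, in chromosome order, on a log2 scale with 95% intervals; filled symbols were called and a star marks genes outside the 9. Ces1g stands at 2.54 in males and 1.09 in females, and Ces3b at -0.75 and -1.41.

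Within each sex the counts of called members were 1 of 9 in males (Ces1g, higher) and 3 of 9 in females (Ces1g higher, Ces3a and Ces3b lower). The share of all genes called was 28.2% in males (16.7% higher and 11.5% lower) and 21.4% in females (12.3% higher and 9.1% lower). After a shift to the array median, 8 members were called in males, 1 higher and 7 lower, while the genes called in all went from 4464 to 8232, of which 1710 were higher and 6522 lower. Fewer of all genes were called in males whichever array was left out. Leaving out single arrays added calls in males, of Ces1e without AKP::Keap1 male replicate 1 (-0.78) and of Ces3b without either AKP::Keap1 female (-0.75). In females it gave 0 to 4 members, with 0 called without AKP female replicate 2 and 1 called without AKP female replicate 1 or AKP::Keap1 female replicate 2. Of all genes, 3390 were called in females with all arrays, and 729, 1828 and 1438 without each of these in turn.

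Whether the genotypes differed by more in one sex than in the other was tested as the female difference minus the male difference. limma called 0 of 9 members, against 1.72% of all genes (0.411% with a positive and 1.31% with a negative value). It gave an unadjusted p below 0.05 for 3 of 9 members and for 3666 of all 15834 genes. For Ces1g the value was -1.45 ± 0.36 (SE, adjusted p = 0.0986; 95% interval -2.33 to -0.57). For Ces2a it was 1.35 ± 0.43 (adjusted p = 0.139; interval 0.31 to 2.39), and for Ces2c, on its brightest probe, 0.88 ± 0.34 (adjusted p = 0.19; interval 0.07 to 1.70). Ces3a had -0.54 ± 0.25 (adjusted p = 0.263) and Ces3b had -0.66 ± 0.34 (adjusted p = 0.294). A called difference in one sex only is therefore not shown to differ between the sexes for any member.

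Between the sexes, averaged over the genotypes, 4 of the 9 members differed: Ces1d and Ces1g were higher in females, and Ces3a and Ces3b were lower. Of all genes, 21.1% were called by sex, 10.9% higher and 10.3% lower in females. The median difference was -0.26 over the members and -0.006 over all genes. The Ces3 genes differed most. Ces3b was -1.73 ± 0.17 in females relative to males (SE, 3.32-fold lower, adjusted p = 0.00382), and Ces3a was -1.10 ± 0.13 (2.15-fold lower, adjusted p = 0.00625). Both kept this call in 18 of 18 other settings.

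Ces1d was 0.72 ± 0.12 higher in females (SE, 1.65-fold, adjusted p = 0.0155), and all 4 females lay above all 4 males. The call was lost without AKP female replicate 1 (adjusted p = 0.0513). Ces1g was 0.99 ± 0.18 higher in females (1.98-fold, adjusted p = 0.0187), and the AKP::Keap1 groups of both sexes overlapped. Its call was lost without AKP::Keap1 male replicate 2 (0.90, adjusted p = 0.063), AKP female replicate 1 (0.90, adjusted p = 0.0601) or AKP::Keap1 female replicate 2 (0.94, adjusted p = 0.0518). With slide as a random block, in a limma model without the interaction, the adjusted p was 0.0654 for Ces1d and 0.147 for Ces1g. In that fit 326 of all genes were called by sex, against 3348 in the main fit.

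Within AKP mice the same 4 genes were called by sex, against 19.4% of all genes, 9.69% higher and 9.76% lower in females. Ces1g was 1.71 ± 0.26 higher in females (SE, adjusted p = 0.0133) and Ces1d 0.85 ± 0.17 higher (adjusted p = 0.0255), whereas Ces3b was at -1.40 ± 0.24 (adjusted p = 0.0163) and Ces3a at -0.83 ± 0.18 (adjusted p = 0.0296). After a shift to the array median 8 members were called, 2 higher and 6 lower, and of all genes 998 were higher and 3737 lower, against 1534 and 1545. No member was called without AKP male replicate 1 or without AKP female replicate 1, and 1 was called without AKP female replicate 2. The genes called in all went from 3079 to 336, 421 and 1034 in these settings.

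Within AKP::Keap1 mice 2 members were called by sex, both lower in females, against 3.8% of all genes, of which 1.18% were higher and 2.61% lower. Ces3b was at -2.06 ± 0.24 (SE, 4.18-fold lower, adjusted p = 0.00921) and Ces3a at -1.37 ± 0.18 (2.59-fold lower, adjusted p = 0.0146). The adjusted p was 0.0533 for Ces3b and 0.0794 for Ces3a without AKP::Keap1 male replicate 1, and 0.0912 for Ces3a without AKP::Keap1 male replicate 2. Ces1g, at 0.26 ± 0.26 (adjusted p = 0.603; 95% interval -0.36 to 0.89), and Ces1d, at 0.60 ± 0.17 (adjusted p = 0.122), were not called there. The change of the sex difference with genotype is the same quantity as the interaction above, which called no member.

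**Figure D4:**
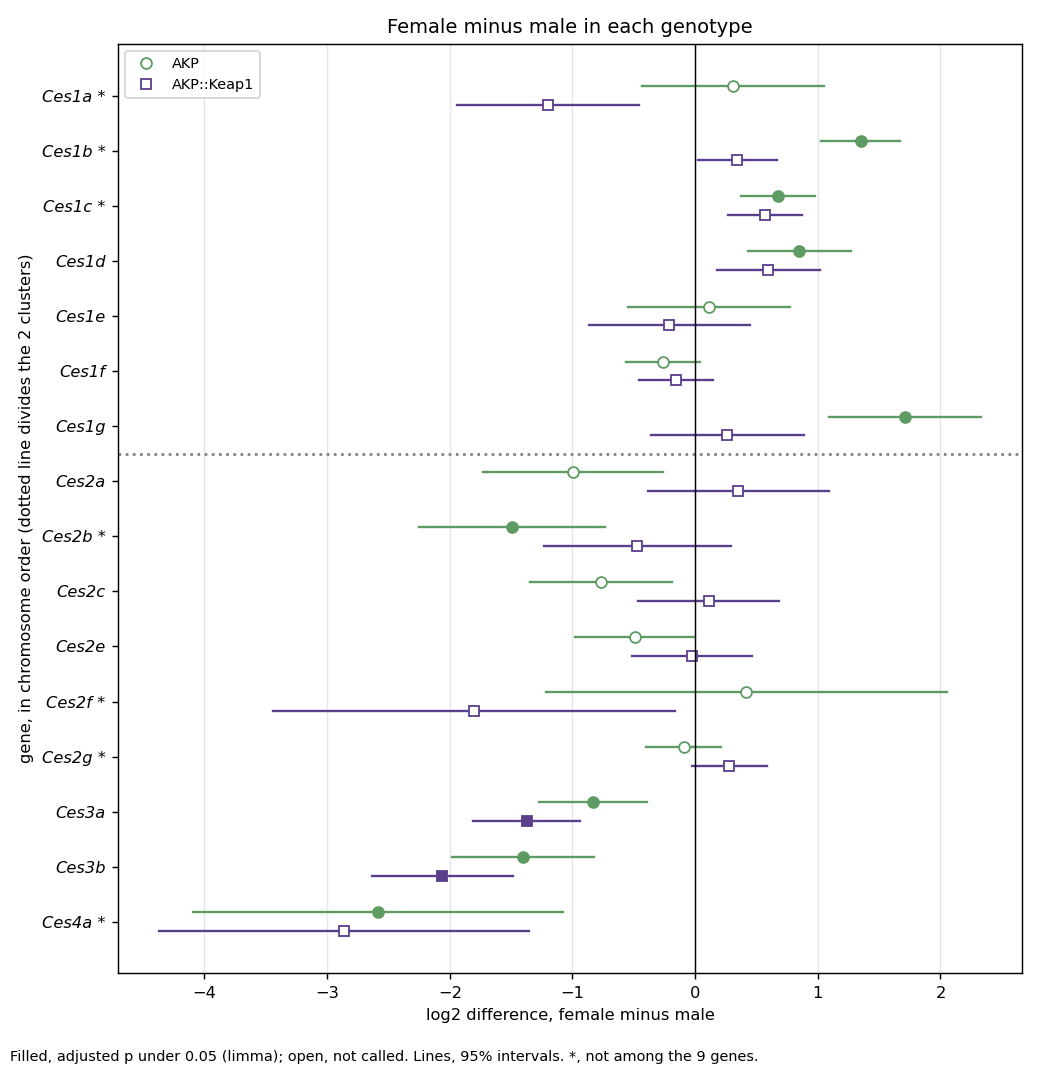
Difference between females and males in AKP (circles) and AKP::Keap1 mice (squares) for the 16 carboxylesterase genes tested, in chromosome order, on a log2 scale with 95% intervals; filled symbols were called and a star marks genes outside the 9. Ces3a (-0.83 and -1.37) and Ces3b (-1.40 and -2.06) lie left of 0 in both genotypes.

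Of 10 further carboxylesterases on a list, 8 had a probe and 7 were tested by genotype, of which 3 rose, 1 fell and 3 were not called, with a median of 0.30. Beside this and the later counts by genotype stand the shares over all genes, 21.8% higher and 17.2% lower. Besides Ces2b, Ces1a rose by 2.10 ± 0.22 (SE, adjusted p = 0.00175), on a dim probe with signals from 11.8 to 176 units, and Ces1b rose by 0.30 ± 0.09 (adjusted p = 0.0474). Ces1c, the carboxylesterase that mouse liver secretes into plasma, fell by 0.37 ± 0.09 (adjusted p = 0.0198). The calls of Ces1b and Ces1c were lost in 12 and 7 of 18 other settings. Ces2f had 0.95 ± 0.48 (adjusted p = 0.157) on a probe well above background on 3 arrays, Ces2g had -0.24 ± 0.09 (adjusted p = 0.0715) and Ces4a had -1.05 ± 0.44 (adjusted p = 0.103).

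By sex, 2 of these 7 were higher in females (Ces1b, 0.85 ± 0.09, and Ces1c, 0.62 ± 0.09), 2 were lower (Ces2b, -0.98 ± 0.22, and Ces4a, -2.72 ± 0.44) and 3 were not called. The share over all genes was 21.1%, 10.9% higher and 10.3% lower. The Ces4a probe was dim, with signals from 14.9 to 53.5 units in females and 115 to 290 units in males. Within the Ces1 cluster Ces1b, Ces1c and Ces1d are neighbours, and all 3 were higher in females. Within the other cluster Ces3a, Ces3b and Ces4a are neighbours, and all 3 were lower in females. These genes were picked out after their values were seen.

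The proteins that carboxylesterases work with were read from lists. Among the KDEL receptors, which return proteins that bear the retention signal, Kdelr3 rose by 1.37 ± 0.18 (SE, adjusted p = 0.00341), while Kdelr1 fell by 0.55 ± 0.09 (adjusted p = 0.00708) and Kdelr2 fell by 0.48 ± 0.08 (adjusted p = 0.00564). Gusb, the beta-glucuronidase that egasyn holds, had -0.12 ± 0.12 (adjusted p = 0.417). Of 12 genes of triglyceride mobilisation and lipoprotein assembly, 1 rose, 7 fell and 4 were not called, with a median of -0.49. Tm6sf2, a protein of lipoprotein export, rose by 0.49 ± 0.09, and the triglyceride synthases Dgat2 and Dgat1 fell by 0.60 ± 0.11 and 0.45 ± 0.08. The lipid droplet protein Plin5 fell by 0.67 ± 0.13.

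Of 22 other liver esterases, lipases and epoxide hydrolases, 2 rose, 6 fell and 14 were not called, with a median of -0.12. The share called over all genes was 39.1%, near that of this list. The epoxide hydrolase Ephx1 rose by 2.30 ± 0.12 (SE, adjusted p = 0.000319) and the S-formylglutathione hydrolase Esd by 0.76 ± 0.12. The arylacetamide deacetylase Aadac, another hydrolase of the endoplasmic reticulum, fell by 0.83 ± 0.11, the paraoxonase Pon2 fell by 0.65 ± 0.08 and the hepatic lipase Lipc fell by 1.49 ± 0.21. Of 17 known Nrf2 targets, 15 rose and 2 were not called, with a median of 2.47. Those with the smallest adjusted p were the glutathione peroxidase Gpx2 (7.76 ± 0.13), the carbonyl reductase Cbr3 (7.50 ± 0.13) and the transporter Abcc4 (4.94 ± 0.15). Ephx1 stands in both of these lists.

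Of 11 xenobiotic and nuclear receptors and liver factors, 5 fell and 6 were not called, with a median of -0.40. The bile acid receptor Nr1h4 fell by 0.76 ± 0.17 (SE, adjusted p = 0.0156), the shared partner Rxra by 0.50 ± 0.10 (adjusted p = 0.0105) and the hepatocyte factor Hnf4a by 0.48 ± 0.12 (adjusted p = 0.0203), the last not called in 8 of 18 other settings. Of genes known to be male-biased in mouse liver, 9 of 10 were lower in females, with a median of -3.14, among them Cyp4a12a (-7.88 ± 0.32) and Cyp2d9 (-2.87 ± 0.13). Of genes known to be female-biased, 8 of 9 tested were higher in females, with a median of 7.39. By genotype, 4 of the male-biased genes fell, 1 rose and 5 were not called, and 1 of the female-biased genes rose and 8 were not called.

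Cell type markers moved with genotype beside these results. Of 14 hepatocyte markers tested, all well above background on every array, 4 fell and 10 were not called. By genotype, limma gave an unadjusted p below 0.05 for 7935 of all 15834 genes and for 10 of these 14 markers, whose median difference was -0.34. Their levels summed on the linear scale, in units of the array's 75th percentile, ranged in males from 3184 to 3642 (AKP) and 2244 to 2357 (AKP::Keap1), and in females from 2688 to 2788 (AKP) and 2196 to 2841 (AKP::Keap1). Of 10 bile duct markers, 8 rose and 2 were not called, and their sum went from 8.01 to 9.18 in AKP males and 3.49 to 9.52 in AKP females to 73.6 to 87.0 and 40.2 to 83.5 in the AKP::Keap1 groups. Of these markers, 9 were well above background on the AKP arrays and all 10 on the AKP::Keap1 arrays.

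Of 6 neutrophil markers 5 rose, with sums of 4.48 to 8.10 over the AKP livers and 29.3 to 39.7 over the AKP::Keap1 livers. Of 9 stellate cell and fibroblast markers 6 rose and 1 fell, with a median of 1.21, and of 9 macrophage and Kupffer cell markers 3 rose. The stellate sums were 54.4 to 59.2 in AKP and 48.5 to 49.6 in AKP::Keap1 males, and 43.2 to 52.55 and 55.05 to 64.5 in females. The macrophage sums overlapped, at 55.0 to 87.6 and 50.4 to 73.0 in males and 89.7 to 116.6 and 101 to 147.8 in females. Of 8 endothelial markers 6 fell. Intestine, another tissue rich in Ces2 enzymes, was represented by 4 of 6 markers, of which 2 rose and 1 fell by genotype. Their sums were 20.2 to 30.9 in AKP and 12.8 to 16.3 in AKP::Keap1 males, and 16.4 to 20.1 and 12.8 to 13.3 in females. By sex, limma called 0 of the 14 hepatocyte markers, and 2 had an unadjusted p below 0.05, as did 6172 of all 15834 genes. Higher in females were 4 of 8 T, NK and B cell markers (median 1.07), 3 of 9 macrophage and Kupffer cell markers and 2 of 8 endothelial markers. The part that these cell type shifts have in the carboxylesterase differences was not tested.

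The genes whose levels ran most like each member over the 8 arrays were sought among 13503 genes well above background on all arrays, with the 9 members left out, by Pearson correlation. Some members ran closer to each other than to any of these genes, Ces3a with Ces3b at 0.995 and Ces2a with Ces2c at 0.981. Ces1g ran with Lyzl6 (r = 0.992) and Prr5 (0.989), whose differences by genotype in males were 1.15 and 0.69. Ces3a ran with Tbp (0.984) and Mtmr1 (0.982), and Ces3b with Haus4 (0.983) and Trip4 (0.981). Ces1d ran with Ap2a2 (0.991) and Rdh10 (0.986), Ces1e with Nars2 (0.951) and Eea1 (0.949), and Ces1f with Mgme1 (0.965) and Kbtbd4 (0.964). Ces2a ran with Immp1l (0.973) and Tmem205 (0.962), Ces2c with Fam219b (0.955) and Aldh7a1 (0.954), and Ces2e with Wdr59 (0.982) and Pex10 (0.970). The 8 arrays fall into 4 groups and the best of many genes was taken each time, so that these values describe likeness in these livers and carry no test.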

How the data were processed

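The authors deposited 1 scanner file per array, made with Agilent Feature Extraction (10.7.3.1 per the file headers, 10.1 per the submitters' processing notes), whose processed signal intensity is background-subtracted and not scaled between arrays, per the file headers. Their deposited value table held the same intensities, equal at 355176 of 355176 values within 1e-06. Control spots and outlier spots (72 to 191 an array) were left out and spots of a probe averaged. Of 39429 probes, 26055 were named through RefSeq accessions. log2 intensity minus the array's 75th percentile was computed here from the deposited intensities. Probes had to be well above background on 2 or more of the 8 arrays. A gene took its value from its brightest probe on average, which left 15834 genes. limma 3.58.1 in R 4.3.3 fitted 1 mean per group to all 8 arrays with lmFit and eBayes, with two-sided tests and Benjamini-Hochberg adjustment over all genes for 7 contrasts, and was tested on simulated data. No depth per sample exists for arrays, and 2 mice per group limit the precision. The labels number the mice within groups, and same-numbered mice did not deviate together (correlations of -0.16 to 0.12).

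Alternatives were other scalings, filters, probe rules and fits, slide and replicate blocks, and each array left out. The normexp alternative, with an offset of 50, used the median spot and background intensities, because the deposited files hold no mean signal. The members and gene lists were chosen with earlier results of these data known. Named were the 9 members, the other carboxylesterases, Keap1 and Trp53, up to 3 genes per list in each direction with the smallest adjusted p (not all are printed), and the 2 genes most like each member. The file headers name mm9 and the RefSeq tables GRCm38.p6, so the only coordinates printed are those of the RefSeq upstream windows, and no probe was placed on them.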

Additional observations from a re-analysis of the deposited data

Results flagged for a closer look

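Ces2a and Ces2c were flagged because the genotypes did not overlap in either sex and stood in opposite order in the 2 sexes. The share of all genes with such a split was not counted. On the probes that stood for these genes, both AKP::Keap1 males lay below both AKP males, and both AKP::Keap1 females lay above both AKP females. The female difference minus the male difference was 1.35 for Ces2a (limma, adjusted p = 0.139) and 0.88 for Ces2c (adjusted p = 0.19). Neither passed the threshold, and neither gene was called by genotype within males or within females. The probes that stood for these 2 genes correlated at r = 0.981 over the 8 arrays, so that they may not be separate observations. The other 2 Ces2c probes were higher in AKP::Keap1 mice of both sexes.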

How the results depend on the processing

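Over 1125 recomputed differences of the 9 members, 1038 kept their side of the threshold, of which 36, called in neither setting, turned in sign, 43 lost a call, 43 gained one and 1 reversed. That 1 was Ces2c in males, 1.08 (adjusted p = 0.0292) as the mean over its probes against -0.36. Outside the 9, Ces2f in males was -0.51 with normexp (2.06 otherwise), and Ces2g in males was 0.076 with values without scaling (-0.43 otherwise).

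Shifting to the array median gave 7 called members by genotype in place of 3, 8 in males in place of 1 and 8 by sex in AKP mice in place of 4. It moved the median of all genes by genotype to -0.25, and values without scaling moved it to 0.31. Of all genes, 2372 were called higher and 6372 lower by genotype with the array median and 5703 and 646 without scaling, against 3456 and 2729. With normexp 2176 were higher and 3954 lower, and 5 members were called by genotype and 2 in males. In males 2 were called with the filter on all 8 arrays and with a trended robust fit, where Ces3b was added (-0.75). The mean over probes also gave 2, with Ces2c added as higher (1.08). Of all genes, 4333, 5081 and 4516 were called in males in these fits, and 5926 with normexp, against 4464. With only the 4 arrays compared, 1 was called in females, 2 by sex in AKP and 0 by sex in AKP::Keap1 mice. Of all genes, 1230, 1232 and 369 were called in these fits, against 3390, 3079 and 601 with all arrays. By sex, 2 of 4 remained called with a random slide block (correlation 0.23) and 2 with values without scaling. The slide fit had genotype and sex without their interaction. With 1 group per slide its correlation cannot be told apart from that interaction, so that it does not measure a slide effect. With the slide block the genes called in all went from 3348 to 326 by sex and from 6185 to 3310 by genotype. With values without scaling 3689 were called by sex.

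Leaving out single arrays left 1 mouse in a group, and fewer of all genes were called in every comparison. The number of called members nevertheless rose in some of these fits by genotype and within males. It fell in some fits by sex, averaged and within each genotype, and went both ways within females. The interaction called 0 members in every setting. With the replicate number as a block, 3, 1, 3 and 0 members were called for genotype, males, females and interaction, and 4, 6 and 2 for sex, AKP and AKP::Keap1. Of all genes, 5641, 3775, 2949, 59, 2676, 2354 and 421 were called, in the same order. Of 63 member differences the block left 59 as they were, added 3 calls and lost Ces1g in females (adjusted p = 0.0532), and the numbers do not pair the mice. Causes of these shifts were not tested. With 2 mice per group and 1 group per slide, a small difference could be missed, so that a gene not called is not shown to be unchanged.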
